A study of Mus musculus with 9 samples.

Results

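mSGc is a spontaneously immortalized line grown out of the submandibular salivary glands of 12-week-old male C57BL/6 mice, and the data described here are its transcriptome over serial passage in serum-free medium (SFM). The 4 libraries in SFM, of 9 samples in the series, were taken at passages P2, P4, P10 and P25, with 1 library a passage. They were split by passage number into an early side, P2 and P4, and a later side, P10 and P25. SFM is a DMEM:F12 medium supplied with EGF, FGF, N2, insulin and dexamethasone, and was taken to be the medium that the labels call progenitor medium. Further libraries at P10 and P25, 1 each, came from serum-containing medium (SCM), labelled as differentiating medium. They are given beside the SFM values without a test. Besides serum, SCM held retinoic acid, EGF, triiodothyronine, hydrocortisone, insulin, transferrin and selenite, so that the media differed in more than serum.

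A salivary gland holds acini that make the saliva, ducts that modify and carry it, and myoepithelial cells, contractile cells of the basal layer that squeeze the acini. Luminal cells of ducts and acini carry the simple keratins Krt7, Krt8 and Krt18 and tight junction claudins, while basal and myoepithelial cells carry Krt5, Krt14 and the transcription factor p63. Epithelial cells put into culture usually lose secretory products early, and continued growth selects cells that do not enter senescence. In such bulk libraries fewer cells of a type and less RNA per cell cannot be told apart.

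Each SFM library held between 8891878 (P10) and 17089965 (P4) counts assigned to genes, so that a floor of 3 counts stood at 0.1755 to 0.3374 CPM (counts scaled to library size), which covers counting error only, since the reads are not independent molecules. Between 11278 and 12148 genes reached 1 TPM, a level scaled to gene length and depth. The epithelial label held in every library, with Epcam between 307.2 and 692 TPM and Cdh1 between 358 and 723 TPM. Summed over their lists, the 11 leukocyte markers stayed at or below 4.48 TPM in SFM, mostly Cd68, and the 9 endothelial markers lay between 0.585 TPM at P10 and a highest sum at P2, where none of them alone reached 1 TPM. Fibroblast markers were not flat. Postn, the matrix protein periostin, had 394, 28.4, 237 and 23.2 TPM in passage order. The other 11 summed to 24.4 TPM at P2 against 1.25 at P4, 0.874 at P10 and 0.805 TPM at P25, and between 3 and 7 of them had no count. Their part in the differences from P2 given below was not tested.

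The first question was which genes separated early from later passages. Of 12285 genes with enough counts, the quasi-likelihood test of edgeR called none at an adjusted p under 0.05 (0% of genes), and the lowest adjusted p was 0.258. At an unadjusted p under 0.05 there were 881 genes, 284 higher in later passages (2.31%) and 597 lower (4.86%). DESeq2 called 254 genes in the same libraries, 52 of them higher in later passages, and limma voom called none. The 2 libraries of a side were different passages, so the spread within a side held the change from P2 to P4 and from P10 to P25, and nothing in the labels says how the cultures were kept apart. Both later libraries lay above both early ones for 1468 genes (11.9%) and below them for 2589 genes (21.1%).

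The genes below missed the threshold and are given for their values. They had the lowest unadjusted p among genes with at least 10 TPM in both libraries of the higher side, an absolute log2 fold change of at least 1 and no overlap between sides. On the lower side the first was Nkd2, an inhibitor of Wnt signalling that binds Dishevelled. Nkd2 stood at 71.8 TPM at P2, 65.9 at P4, 5.4 at P10 and 6.28 at P25, with an edgeR log2 fold change of -3.47 ± 0.31 (standard error) and the adjusted p of 0.258. Levels within each side were nearly equal, and nearly all of the difference lay between P4 and P10. The tight junction claudin Cldn7 had 270.0, 184, 37.4 and 36.3 TPM in passage order, and in SCM it had 166 TPM at P10 and 221 at P25, so that both SCM values lay above both later SFM values. Dynap, which codes for a dynactin-associated protein, had 500.3, 508, 75.7 and 92.6 TPM. Spns2, a transporter that exports sphingosine-1-phosphate, had 61.3, 64, 12.9 and 6.53 TPM, and Alox12, a lipoxygenase of arachidonic acid, had 38, 43.1, 9.38 and 7.04 TPM. Early values of these 2 genes differed little, and the later values were at most 12.9 TPM. St3gal5, the enzyme that makes ganglioside GM3, had 17.5, 12.8, 1.6 and 0.961 TPM. Irs1, an adaptor of the insulin receptor, had 16.8, 10.1, 2.75 and 2.66 TPM in a medium that holds insulin. The other genes named on this side were Cdc42ep3, Mal and Cmtm3, with log2 fold changes of -3.15 ± 0.46, -2.84 ± 0.42 and -2.22 ± 0.34.

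On the higher side, Tslp was the most abundant. It codes for thymic stromal lymphopoietin, a cytokine of epithelia. Tslp stood at 300.1 TPM at P2, 441 at P4, 2284 at P10 and 2489 at P25, with a log2 fold change of 2.75 ± 0.42 and an edgeR adjusted p of 0.337. In SCM it had 586 TPM at P10 and 2567 at P25, below the SFM level at P10 and close to it at P25. Ntrk2, the receptor of brain-derived neurotrophic factor, stood at 3.43 TPM at P2, 4.81 at P4, 97.3 at P10 and 34.1 at P25. Twist1, a basic helix-loop-helix factor of mesenchymal cells and of epithelial-mesenchymal transition, stood at 0.811 TPM at P2, 1.02 at P4, 10.4 at P10 and 25 at P25 (log2 fold change 4.34 ± 0.72). For Twist1 both early values were near 1 TPM and each later passage was higher than the one before. Il20rb, a receptor subunit for cytokines of the interleukin-20 family, had 7.24, 13.1, 38.6 and 41.3 TPM. Sord, sorbitol dehydrogenase, had 17.2, 28.1, 103 and 76.3 TPM, and Socs3, a feedback inhibitor of cytokine receptors, had 10.2, 8.67, 32.2 and 22.5 TPM. Of these 3 genes only Il20rb was higher at P25 than at P10. Peg3, an imprinted zinc finger gene expressed from the paternal allele, had 4.19, 7.03, 43 and 17.9 TPM. Trib2, Pcdh7, Rap1gap, Ccdc3 and 6030419C18Rik completed the 12, with log2 fold changes between 1.75 (Trib2) and 2.93 (Rap1gap).

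**Figure D1:**
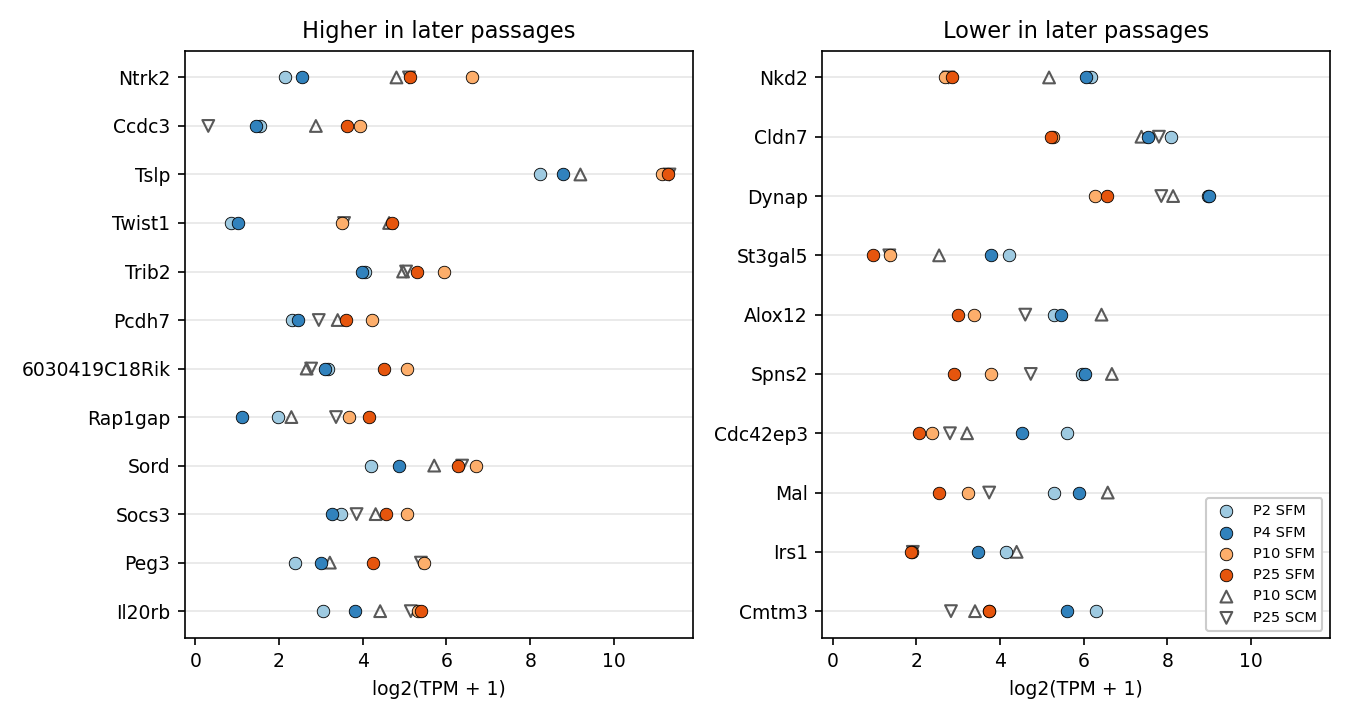
Levels of the 22 genes shown, chosen by the lowest unadjusted p, that were higher (left) or lower (right) in later passages, as log2(TPM + 1) on the horizontal axis, with 1 filled point for each SFM library and open triangles for the SCM libraries. The light and dark blue early points lie apart from the orange later points in every row because the rule asked for it. For Alox12, Spns2, Mal and Irs1 the P10 SCM triangle lies to the right of both early SFM points.

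The second question was which genes followed passage number. A slope on the log2 of the passage number, fitted by edgeR over the same 4 libraries, was past an adjusted p of 0.05 for 31 genes, of which 29 fell with passage (0.236% of the genes tested) and 2 rose (0.0163%). At an unadjusted p under 0.05 the slope was negative for 866 genes (7.05%) and positive for 310 genes (2.52%). Of the 29 that fell, 26 were lower at every step, against 6.50% of all genes tested. All 29 had been chosen for a falling slope over these same libraries, which favours such a course. The largest step was from P2 to P4 in 13 of them, from P4 to P10 in 12 and from P10 to P25 in 4. At P25 in SFM, 15 of the 29 were at or under the floor of 3 counts and 6 had no count. The calls rest on the P2 library: without it none of the 31 was called, with 1 residual degree of freedom, although all 31 kept their sign. Without P4, P10 or P25 there were 19, 617 and 243 calls. DESeq2 called 464 slopes, 77 of them rising, and these held all 31. Asking for 10 counts in every library removed 18 of the 31 and left 3 called.

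Several of the genes that fell code for secreted or tight-junction proteins of epithelia. Wfdc18, a small secreted protein of the whey acidic protein family (chr11:83522506-83524862 in mm9), stood at 1606 TPM at P2, 267 at P4, 49.6 at P10 and 5.19 at P25. Its slope was -2.16 ± 0.12 per doubling of the passage number, with an edgeR adjusted p of 0.0121. Each passage was lower than the one before, and in SCM the gene had 2337 TPM at P10 and 47.4 at P25. Cldn4, a claudin of luminal cells (chr5:135420993-135422804), stood at 824 TPM at P2, 313 at P4, 137 at P10 and 42.3 at P25 (slope -1.09 ± 0.11, edgeR adjusted p = 0.0293). Sftpd, surfactant protein D, a collectin secreted by lung and gland epithelia, had 57.9, 12.1, 0.492 and 0 TPM, and with no count at P25 it was at least 217-fold lower there than at P2. Gprc5a, a retinoic acid induced receptor of epithelia, had 63.8, 27.4, 3.36 and 0.852 TPM, while in SCM it had 51.4 TPM at P10 and 27.5 at P25. Both SCM values of Gprc5a lay above both later SFM values. Cldn6, a claudin of embryonic epithelia, had 64.7, 5.1, 0 and 0.0781 TPM, with 1 count at P25. Ceruloplasmin (Cp), a secreted copper protein, had 156, 22.4, 14.3 and 2.97 TPM. Cldn4, Cldn6, Cp and the genes marked as such further on were named after their values were seen.

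Others code for matrix and secreted signalling proteins. Ctgf, a matricellular protein induced by TGF-beta and by YAP (chr10:24315248-24318488), stood at 1931 TPM at P2, 740.3 at P4, 96.3 at P10 and 37.8 at P25 (slope -1.56 ± 0.18, edgeR adjusted p = 0.0424). In SCM it had 1157 TPM at P10 and 78.2 at P25, so that the P10 value in SCM lay between the early values in SFM. Fstl1, a secreted follistatin-like glycoprotein of mesenchyme (chr16:37777141-37836602), stood at 89.1 TPM at P2, 7.59 at P4, 1.33 at P10 and 0.0652 at P25, with 2 counts at P25, so that the ratio of P2 to P25 was 1366 (95% exact counting interval 378 to 11289). Dkk3, a secreted protein of the Dickkopf family of Wnt modulators, had 49.9, 14.2, 2.07 and 0.21 TPM. Col11a1, a chain of fibrillar collagen XI, had 26.4, 4.81, 0.568 and 0.113 TPM. The basement membrane genes Nid1 and Lama4, for nidogen and a laminin chain, had 8.91, 0.829, 0.036 and 0 TPM and 3.56, 0.405, 0 and 0 TPM, so that both were near zero from P10 onward. Fkbp10, a collagen chaperone, had 31.2, 2.78, 0.501 and 0.0452 TPM. Tnfrsf11b, the decoy receptor osteoprotegerin, had 43.1, 0.711, 0.0772 and 0 TPM and was at least 344-fold lower at P25 than at P2. Angptl4, a secreted inhibitor of lipoprotein lipase, had 58.6, 7.61, 3.08 and 0.618 TPM, and Ntn1, the guidance cue netrin-1, had 14.9, 1.71, 0.379 and 0.0615 TPM. In SCM, Ntn1 had 12.7 TPM at P10 and 6.22 at P25, above both later values in SFM. Col11a1, Nid1, Lama4, Fkbp10, Tnfrsf11b and Ntn1 were named after their values were seen. The sum of the fibroblast markers given above differed most from P2 to P4. Fstl1, Nid1, Lama4, Fkbp10, Tnfrsf11b, Angptl4 and Ntn1 also had their largest step there, while Ctgf, Dkk3 and Col11a1 had theirs from P4 to P10. A link between these genes and the fibroblast markers was not tested.

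Cnn1, Flnc and Sorbs2, which fell as well, belong to the actin cytoskeleton. Cnn1, calponin of smooth muscle and myoepithelium (chr9:21903697-21913665), had 21.2, 1.51, 0 and 0 TPM, with no count at P10 or P25 in either medium, and was at least 119-fold lower at P25 than at P2. Flnc, the muscle filamin, had 18.1, 3.15, 0.237 and 0 TPM. Sorbs2, an adaptor of stress fibres and junctions, had 349, 106, 38 and 4.05 TPM, with 249 TPM at P10 and 49.5 at P25 in SCM. Among signalling genes, Aldh1a3, which makes retinoic acid, had 84.3, 30.4, 2.94 and 0.45 TPM (slope -2.08 ± 0.17, edgeR adjusted p = 0.0166). Efnb2, ephrin-B2, had 53.7, 17.1, 5.08 and 1.39 TPM, and F2r, the thrombin receptor, had 37.4, 17.4, 3.36 and 1.32 TPM. Both were lower at each passage than at the one before. The other genes that fell were Cited4, Cpxm2, Cytip, Dpysl3, Prnd, Sema4f and Slc25a13, at 8.37 (Sema4f) to 60.7 TPM (Cited4) at P2 and at 0.0235 to 1.68 TPM at P25. Flnc, Sorbs2, Efnb2, F2r and these 7 were named after their values were seen.

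The 2 genes that rose were of other kinds. Prkg2, a cGMP-dependent protein kinase (chr5:99358792-99466098), stood at 15.5 TPM at P2, 28.1 at P4, 56.1 at P10 and 125 at P25, close to a doubling at each step (slope 0.87 ± 0.10, edgeR adjusted p = 0.0424). In SCM it had 10.9 TPM at P10 and 13.9 at P25, below each SFM level at the same passage. Tbx15, a T-box transcription factor of limb and skeletal mesenchyme, named after its values were seen, had 0, 0.0937, 1.52 and 8.01 TPM, with 5.01 TPM at P10 and 12.7 at P25 in SCM. It had no count at P2 and was at least 50.4-fold higher at P25.

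**Figure D2:**
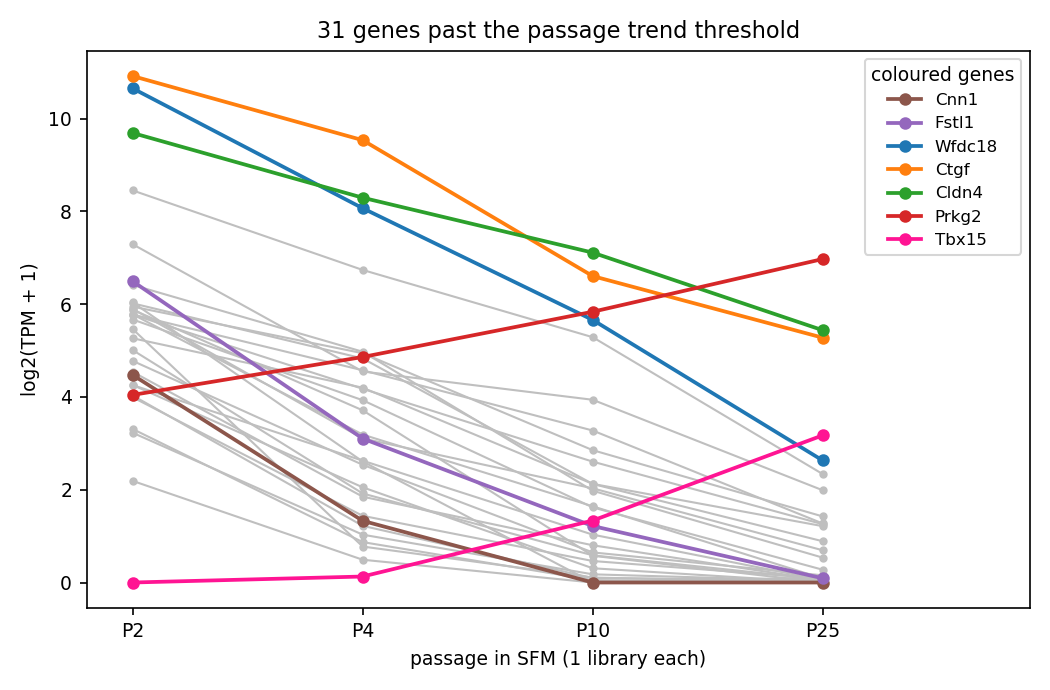
Level of each of the 31 genes whose slope on log2 passage passed the threshold, as log2(TPM + 1) on the vertical axis, over the 4 SFM libraries in passage order (equally spaced, not to scale of passage number). Coloured lines mark 7 of the genes named in the text and grey lines the other 24, and all but Prkg2 and Tbx15 run downward.

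Of the 29 that fell, 15 were at least 2-fold higher in SCM than in SFM at P10, on the log2(TPM + 1) scale, against 7.08% of all genes tested, and 9 were so at P25, against 3.40%. Each combination of medium and passage had 1 library, and the genes had been chosen for low values in the later SFM libraries used here, which favours SCM in this comparison. The counts are given as a description.

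Between successive passages the number of genes at least 2-fold apart, on a log2(CPM + 1) scale, was larger at each later step. From P2 to P4, 334 genes were higher (2.72%) and 684 lower (5.57%). From P4 to P10, 780 were higher (6.35%) and 989 lower (8.05%), a split that turned to 972 higher and 820 lower without TMM factors. From P10 to P25, 931 were higher (7.58%) and 1121 lower (9.12%). Each step compares a pair of libraries and carries no test. The steps span unequal numbers of passages, more at each later step, so the counts give no rate of change. Both later steps also include P10, the SFM library with the fewest counts. The Pearson correlation of log2(TPM + 1) across 12558 genes, which are not independent replicates, was lowest among SFM libraries between P2 and P25 (0.917) and highest between P2 and P4 (0.963). It did not follow passage throughout, since P4 and P25 were at 0.960, against 0.945 for P4 with P10 and 0.940 for P10 with P25, and P25 in SFM with P25 in SCM was at 0.972.

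**Figure D3:**
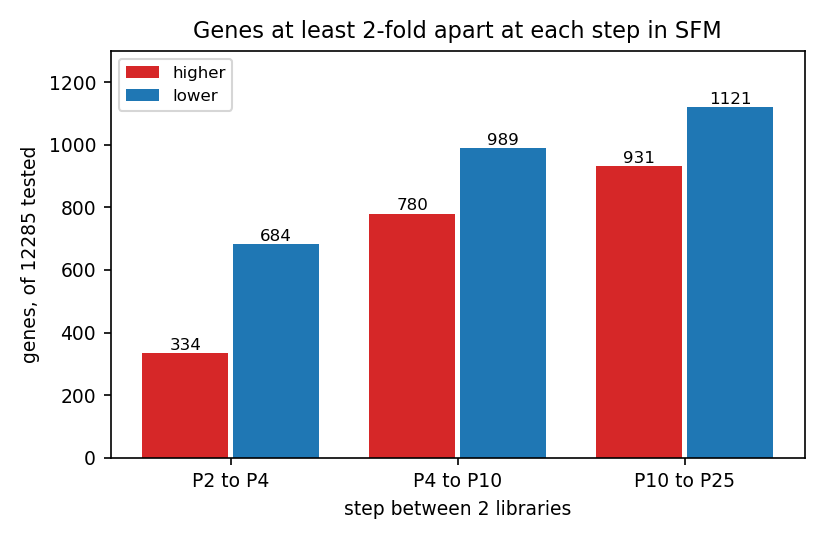
Number of genes, of 12285 tested, that were at least 2-fold higher (red) or lower (blue) in the later of a pair of successive SFM libraries. Lower genes outnumber higher ones at each step here, by 684 to 334 from P2 to P4, but without TMM factors the step from P4 to P10 has 972 higher and 820 lower.

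The gene lists put these genes among others of the same kind, and each is described by its counts and median beside those of all genes tested, whose median log2 fold change of later over early passages was 0.01. Ductal and luminal genes had the lowest median, -2.43 over 17 genes. None passed the adjusted threshold in early against later, 10 had an unadjusted p under 0.05 and a lower level in later passages (against 4.86% of all genes), and 12 had both later libraries below both early ones (against 21.1%). Egf, among the 10, had 0.318, 16.6, 0.457 and 0.173 TPM. Klk1, which had too few counts to be tested, had 0.863, 18.1, 0 and 0 TPM, with 23.3 TPM at P10 in SCM. In SFM both were high at P4 alone, and both were named after their values were seen. Krt7, a keratin of simple epithelia, stood at 2074 TPM at P2, 1511 at P4, 372 at P10 and 97.8 at P25 (log2 fold change -2.91 ± 0.62), with 3232 TPM at P10 and 2576 at P25 in SCM. Krt8 had 6326, 2940.2, 672 and 1172 TPM, and its partner Krt18 had 4548, 1825, 738 and 516 TPM. In SCM, Krt8 had 3743 TPM at P10 and 2154 at P25, above both later levels in SFM, and the P10 value lay between the early SFM levels. Summed over the listed genes, the ductal and luminal TPM went from 15836 at P2 to 8124 at P4, 2811 at P10 and 3263 at P25, with 14626 at P10 and 9159 at P25 in SCM. The median stayed between -4.01 and -1.88 when any 1 library was left out.

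Of 22 acinar secretory genes, 20 were in the table and 9 passed the filter on low counts, with a median of -1.38 that ran from -3.97 (without P10) to -0.90 (without P4) when 1 library was left out. Among the 11 that did not pass, several were counted almost only at P4. Prol1, a proline-rich salivary protein, had 0, 60.0, 0 and 0.101 TPM in passage order, and Car6, the secreted carbonic anhydrase of saliva, had 0.138, 40.6, 0.635 and 0 TPM. Dcpp2, one of a group of near-identical paralogs between which reads can be split, had 0, 36.3, 0 and 0 TPM, and Bpifa2, the parotid secretory protein, had 0, 15.8, 0 and 0 TPM. These 4, named after their values were seen and not tested, had 628, 499, 199 and 136 counts at P4 and set the P4 library apart on saliva proteins, and the sum of the list was 72.4, 293, 57.2 and 28.9 TPM. Smgc and Muc19 were low at every passage. Smgc, a mucin-like product of the immature submandibular gland, had 1.4, 1.76, 0 and 0 TPM, and Muc19, the mucin gene that overlaps it on chromosome 15, had 0.519, 0.416, 0.0239 and 0 TPM. Without knowledge of how overlapping reads were counted, the split between these 2 genes is uncertain. Slc12a2, the cotransporter that loads acinar cells with chloride, had 44.3, 46.2, 28.2 and 14.3 TPM (log2 fold change -1.06 ± 0.35, edgeR adjusted p = 0.585). Not all members were lower in later passages: of the 9 tested, 7 had a negative log2 fold change and 2 a positive one. Aqp5, aquaporin 5, named after its values were seen, had 2.8, 5.31, 1.4 and 12.7 TPM, with its highest SFM level at P25. In SCM it had 18 TPM at P10 and 20.9 at P25.

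Contractile genes of myoepithelium had a median of -1.61 over 11 genes, with 6 lower at an unadjusted p under 0.05 (against 4.86% of all genes) and 8 with both later libraries below both early ones (against 21.1%). The median became -2.52 without P10 and -1.34 without P2, and 10 of the 11 had a negative log2 fold change. Of the 11, 10 had their highest level at P2 (against 37.4% of all genes tested), the library in which the fibroblast marker sum was also highest. Acta2, smooth muscle actin, stood at 544 TPM at P2, 106 at P4, 7.86 at P10 and 48 at P25 (log2 fold change -3.32 ± 1.11), so that P25 was above P10. Tagln, transgelin, had 199, 16.9, 3.02 and 2.37 TPM, and Myl9, a regulatory light chain of myosin, had 107, 19.1, 1.41 and 1.41 TPM. Both were at or below 3.02 TPM at P10 and P25. Tpm1, a tropomyosin, had 1441, 885, 224 and 469 TPM. Contractile genes are known targets of serum response factor, which binds the CArG box. A CArG box lay within 250 bases before to 50 after the start of 1 of the 12 contractile genes with a RefSeq promoter, against 1.57% of 27025 promoters (searching 1 strand, since the box reads the same on both). It is the Myl9 box, shown in capitals (GRCm38.p6, plus strand, chr2:156775278-156775337).
Myl9: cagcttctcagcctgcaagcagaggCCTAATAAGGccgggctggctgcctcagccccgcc

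Basal genes had a median of 0.40 over 17 genes, with 3 higher at an unadjusted p under 0.05 (against 2.31% of all genes) and none lower. Krt5, the basal keratin, had 3119, 9234, 9214 and 9386 TPM, and its partner Krt14 had 5623, 8929, 4728 and 9091 TPM. Krt5 was thus lowest at P2 and level from P4 onward, and Krt14 overlapped between sides. Trp63, the gene of p63, stood at 27.6 TPM at P2, 44.1 at P4, 94.6 at P10 and 71.3 at P25 (log2 fold change 1.25 ± 0.37, edgeR adjusted p = 0.541). Col17a1, the hemidesmosome collagen, had 171, 287, 513 and 434 TPM. Krt15, a keratin of basal progenitors, had 43, 66.4, 547 and 125 TPM, with its highest level at P10. Squamous and cornified genes had a median of -0.90 over 18 genes, which became -0.17 without P4, and 9 of them were highest at P4 (against 13.5% of all genes). At an unadjusted p under 0.05, 5 were lower (against 4.86% of all genes) and 2 higher (against 2.31%), so the list went both ways. The 2 higher ones, Krt13 and Calml3, named after their values were seen, had 4.6, 8.31, 34.4 and 15.5 TPM and 3.71, 2.58, 11.7 and 7.18 TPM. Lce1h, a protein of the cornified envelope, had 70.4, 18.6, 0 and 0 TPM, and Tgm1, the transglutaminase that crosslinks that envelope, had 9.81, 21.6, 1.52 and 0.939 TPM.

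**Figure D4:**
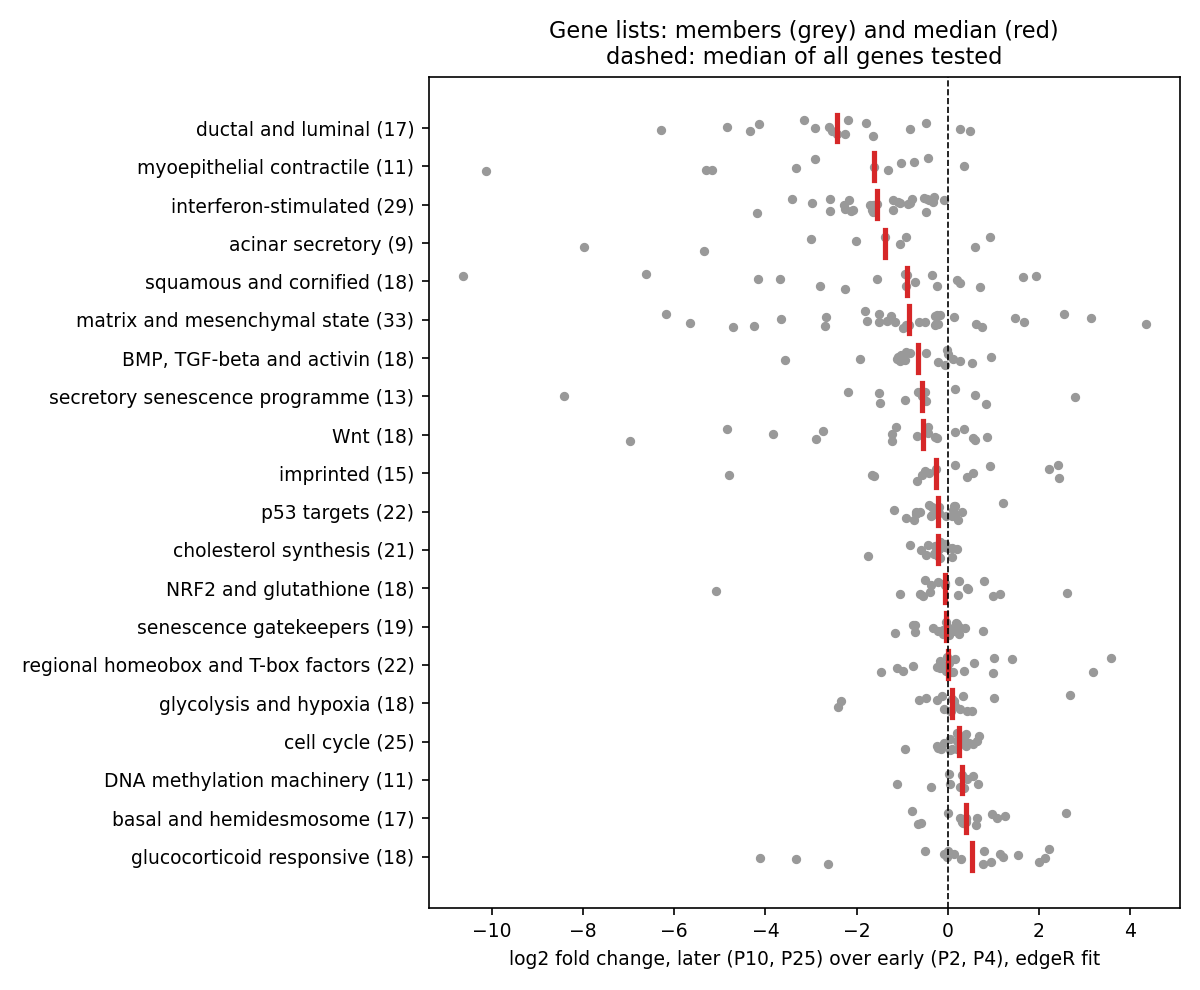
Log2 fold change of later (P10, P25) over early (P2, P4) SFM passages for each tested member of 20 gene lists (grey points, jittered vertically; number tested in parentheses), with the list median in red and the median of all genes tested as a dashed line. Ductal and luminal genes have the lowest median (-2.43) and glucocorticoid responsive genes the highest (0.54).

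Interferon-stimulated genes code for the antiviral proteins that cells make through the factor ISGF3 and its binding site, the interferon-stimulated response element. All 29 tested members had a negative log2 fold change, with a median of -1.56, although only 5 had an unadjusted p under 0.05 (against 4.86%). The course was not steady. The median step was -2.16 from P2 to P4, 0.67 from P4 to P10 and -1.74 from P10 to P25 on the log2(CPM + 1) scale. Of the 29, 28 were highest at P2 (against 37.4% of all genes) and 28 lowest at P25 (against 39.1%). Bst2, tetherin, stood at 1014 TPM at P2, 196 at P4, 193 at P10 and 49.1 at P25, and Isg15, a ubiquitin-like modifier named after its values were seen, at 621 TPM at P2, 103 at P4, 98.1 at P10 and 17.4 at P25. Rsad2, viperin, had 35.7, 5.77, 5.57 and 1.09 TPM. Oas1a, an oligoadenylate synthetase, had 34.6, 3.19, 0.806 and 0.997 TPM, and Psmb8, a subunit of the immunoproteasome, had 37.2, 4.92, 3.02 and 0.769 TPM. Each of these 5 had its highest level at P2, and P4 and P10 were close together for Bst2, Isg15 and Rsad2. In the trend fit none passed the adjusted threshold, and 19 of the 29 had a falling slope at an unadjusted p under 0.05 (against 7.05%). Without the P2 library the median of early against later became 0.12, so the direction of that comparison rests on P2. It was -3.02 without P10 and -0.77 without P25.

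The core of the response element, GAAANNGAAA on either strand, was found in the window from 250 bases before to 50 after the start of 12 of the 23 listed genes with a RefSeq promoter (52.2%), against 943 of all 27025 promoters (3.49%). Stretches around the first match are printed for 5 genes of this list, of which Isg15 and Ifit1 were picked after their values were seen, with the motif or its reverse complement in capitals (GRCm38.p6, on the strand of each gene). They show the element in genes that have it within this window and say nothing of whether it was bound.
Isg15 (chr4:156200862-156200921, minus strand): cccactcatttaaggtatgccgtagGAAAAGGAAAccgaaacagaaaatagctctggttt
Rsad2 (chr12:26456538-26456597, minus strand): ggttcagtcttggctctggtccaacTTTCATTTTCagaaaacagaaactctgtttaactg
Bst2 (chr8:71537568-71537627, minus strand): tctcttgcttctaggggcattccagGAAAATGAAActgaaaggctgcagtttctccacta
Oas1a (chr5:120907511-120907570, minus strand): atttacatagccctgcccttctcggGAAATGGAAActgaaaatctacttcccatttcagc
Ifit1 (chr19:34640760-34640819, plus strand): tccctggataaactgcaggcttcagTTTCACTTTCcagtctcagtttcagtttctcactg

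Proliferation genes differed between the SFM libraries without following passage order. All 25 cell cycle genes had their lowest SFM level at P10 (against 25.3% of all genes tested), and 22 had their highest at P25 (against 17.9%). Mki67, the proliferation antigen Ki-67, stood at 40.5 TPM at P2, 56.2 at P4, 31.9 at P10 and 84.2 at P25. Top2a, topoisomerase of dividing cells, had 88.3, 125, 82.6 and 225 TPM, and Ccnb2, cyclin B2, had 54.6, 76.9, 37.8 and 130.5 TPM. None had an unadjusted p under 0.05 in early against later, and the list median of 0.25 became -0.95 without P25 and -0.11 without P2, against 0.75 without P4 and 0.87 without P10. The summed TPM of the list was 1685, 2768, 1166 and 3670 in passage order, with 2018 at P10 and 4240 at P25 in SCM. Glucocorticoid responsive genes, read here because SFM holds dexamethasone, were most often highest at P10, in 11 of 18 (against 31.2%). Tsc22d3, the glucocorticoid-induced leucine zipper, had 87.4, 135, 781 and 133 TPM, and Fkbp5, a chaperone of the glucocorticoid receptor, had 69.3, 66.7, 208 and 98.6 TPM, both named after their values were seen. Dusp1, a phosphatase of MAP kinases, had 44, 14.9, 5.82 and 3.21 TPM. The list median of 0.54 became -0.04 without P10 and 0.29 without P2. Cholesterol synthesis genes were highest at P4 in 21 of 21 (against 13.5%).

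**Figure D5:**
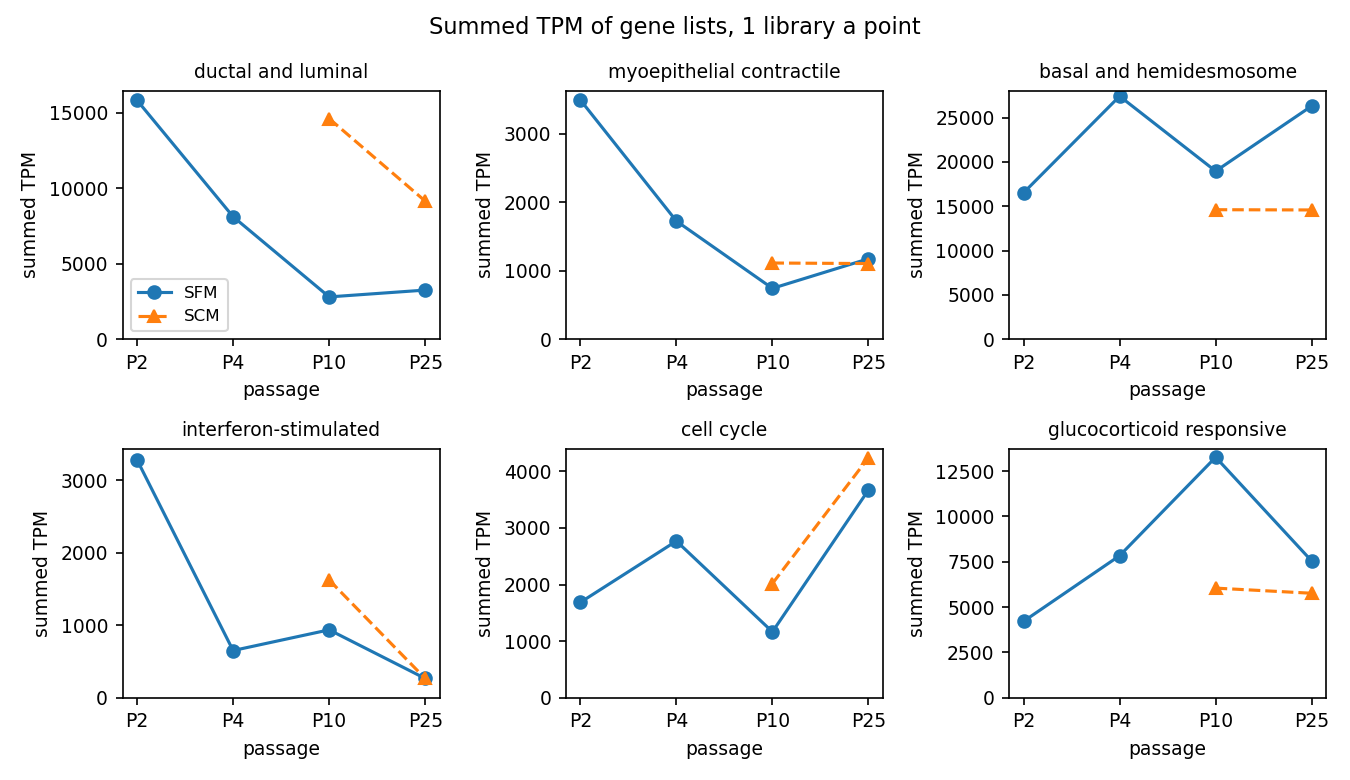
Summed TPM over all listed genes of 6 gene lists (vertical axes, each from 0) by passage, with SFM libraries as circles joined by solid lines and SCM libraries as triangles joined by dashed lines, 1 library a point. Ductal and luminal and contractile sums are highest at P2, cell cycle genes are lowest at P10 (1166), and glucocorticoid responsive genes are highest there.

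Genes that hold cells back from unlimited growth were still expressed. Cdkn2a, which codes for p16 and ARF, stood at 90.0 TPM at P2, 75.2 at P4, 54.2 at P10 and 18.2 at P25 (log2 fold change -1.17 ± 0.48, edgeR adjusted p = 0.711). Each passage was lower than the one before, and the slope did not pass the adjusted threshold. Cdkn2b, its neighbour on chromosome 4, had 92.5, 48.7, 59.9 and 20.4 TPM, and Cdkn1a, the p21 gene, had 592, 415, 389 and 207 TPM. Trp53 had 189, 157, 113 and 184 TPM and overlapped between sides, and Tert, the catalytic subunit of telomerase, had 6.95, 4.16, 5.33 and 1.34 TPM. The median over 19 tested gatekeeper and immortalization genes was -0.04, and became 0.22 without P4 and 0.08 without P10. One gene in the list, Cdkn1b (p27), was higher at an unadjusted p under 0.05, at 29, 30.4, 55 and 42.7 TPM, a share near the 2.31% of all genes. The 22 p53 targets had a median of -0.22, which became 0.05 without P25 and -0.50 without P10, and 2 were lower at that p (against 4.86%), Plk2 and Pmaip1. Pmaip1, the pro-apoptotic gene NOXA, had 179, 71.2, 68.5 and 35.6 TPM.

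Among 33 matrix and mesenchymal genes the median was -0.85, which became -0.33 without P2. At an unadjusted p under 0.05, 8 were lower (against 4.86% of all genes) and 2 higher (against 2.31%). Of the 33, 20 had their highest level at P2 (against 37.4% of all genes tested), as the fibroblast marker sum did. A link between these was not tested. Thbs1, thrombospondin-1, had 1340.3, 576, 119 and 151 TPM, besides Ctgf, Fstl1 and Twist1 above. Lox, lysyl oxidase, named after its values were seen, had 189.6, 5.41, 3.92 and 0 TPM. Sparc and Tgfbi, also named after their values were seen, were highest at P25. They had 271, 109, 64.7 and 491 TPM and 2.54, 5.78, 8.52 and 16.8 TPM. Of 18 BMP, TGF-beta and activin genes (median -0.65, which became -0.39 without P25) 4 were lower (against 4.86% of all genes) and 1 higher (against 2.31%) at an unadjusted p under 0.05. Id2, a BMP-induced inhibitor of differentiation, had 19.5, 9.98, 1.03 and 1.2 TPM, with 90.0 TPM at P10 and 45.6 at P25 in SCM, above every SFM value. Inhba, the activin A subunit, had 56.8, 39.3, 26.6 and 16.8 TPM, and Tgfbr1, a TGF-beta receptor, had 28.2, 22.4, 50.7 and 42.2 TPM. The 18 Wnt genes had a median of -0.55, with 5 lower (against 4.86%) and none higher (against 2.31%). The secretory senescence programme had a median of -0.57 over 13 genes, which became 0.18 without P2 and -1.0 without P10. Csf3, a growth factor of granulocytes, was at 5.13, 2.45, 2.71 and 42.6 TPM, and Ccl20, a chemokine, was at 14.6, 2.5, 0 and 0 TPM.

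The median of 22 regional homeobox and T-box factors was 0.01, between -0.11 and 0.24 with 1 library left out. In later passages 2 were higher (against 2.31% of all genes) and 1 was lower (against 4.86%) at an unadjusted p under 0.05. Tbx2, a repressor of senescence genes, had 0.796, 1.09, 5.86 and 15.6 TPM and Foxc2, a forkhead factor of mesenchyme, had 0.347, 1.19, 2.08 and 11.3 TPM, both higher. Sox9, a factor of gland progenitors, was the lower one, at 108, 54.4, 49.7 and 28.3 TPM, a share near that of all genes. Medians were 0.09 for glycolysis and hypoxia (18 genes), -0.07 for NRF2 and glutathione (18), -0.20 for cholesterol synthesis (21), -0.26 for imprinted genes (15) and 0.31 for the DNA methylation machinery (11). Glycolysis and hypoxia became -0.16 without P2 and -0.10 without P25, cholesterol synthesis 0.41 without P4, imprinted genes 0.13 without P2, and DNA methylation machinery -0.015 without P10. NRF2 and glutathione became -0.23 without P2. Car9, a carbonic anhydrase induced by hypoxia, had 8.87, 7.33, 8.21 and 84.3 TPM, a difference carried by P25. Gclm and Slc7a11, targets of NRF2 in glutathione synthesis, had 61.8, 54.1, 125 and 118 TPM and 4.48, 4.56, 46.3 and 9.29 TPM.

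Per chromosome, the median log2 fold change of later over early passages lay between -0.22 (chromosome 14, 409 genes) and 0.14 (chromosome 10, 591 genes) over the autosomes. Without P10 both turned, to 0.015 for chromosome 14 and -0.07 for chromosome 10. Medians of single steps went further from 0. The median of chromosome 14 was -0.48 from P4 to P10 and 0.50 from P10 to P25, that of chromosome 10 was 0.31 and -0.38, and that of chromosome 18 was 0.13 and -0.44. Chromosome 8 had a median step of 0.40 from P2 to P4. These values are on the log2(CPM + 1) scale, with all-gene medians between -0.03 and 0.01. Of the 31 genes of the trend, 2 lay on chromosome 8 (which held 687 of the 12285 genes tested), 2 on chromosome 10 (591) and 1 on chromosome 14 (409).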

How the data were processed

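The 4 SFM and 2 SCM libraries of mSGc came from 1 deposited table of raw counts per gene. Per the labels and the study's methods, the authors prepared TruSeq libraries, aligned reads to mm9 and counted them with featureCounts; the submitters' processing notes name TopHat2 2.1.1, Bowtie2 2.2.6 and featureCounts 1.5.1. The annotation, the use of strand and the treatment of multi-mapping reads are not given in the sources used here, so genes with near-identical copies or overlapping neighbours are uncertain. Of 23366 entries, 27 carried gene names turned into dates by a spreadsheet (0.172% to 0.228% of counts) and were kept out of the named genes. TPM was derived here from each gene's count and its length in the table.

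Early against later and the slope on log2 passage were tested two-sided with edgeR 4.0.16 (R 4.3.3): TMM factors, the default expression filter, the quasi-likelihood test, 2 residual degrees of freedom and Benjamini-Hochberg adjustment over 12285 genes at 0.05. limma 3.58.1 and DESeq2 1.42.0 were alternatives. The fits were tested on simulated counts first. P-values measure the spread between these libraries of 1 line. For the slope, with 1 library a passage, that spread is the departure from the fitted line on log2 passage. No replicate cultures enter it. Steps between single libraries used log2 of TMM-scaled CPM with a pseudocount of 1 and carry no test.

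The split, the 24 gene lists and the rule for named genes were chosen with earlier results of these data known. That rule took 12 genes a direction as described in the report, up to 4 a list with the lowest p, a few marker genes, and up to 5 called slopes a direction with at least 10 TPM in 2 libraries, by size. Some genes that the rule names are not reported here. Promoters came from RefSeq (GRCm38.p6), and no mm9 coordinate was mixed with them.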

Additional observations from a re-analysis of the deposited data

Results flagged for a closer look

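Among the genes named, 5 went opposite ways from P10 to P25 in the 2 media by at least 1 on the log2(TPM + 1) scale. The difference was not tested, since each medium had 1 library at each passage. Acta2 differed by 2.47 in SFM and by -3.61 in SCM. Egln3, a hypoxia-induced hydroxylase, differed by 1.12 and -3.82. Peg3 differed by -1.22 and 2.18. Slc7a11 differed by -2.20 and 1.83. Twist1 differed by 1.19 and -1.08.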

How the results depend on the processing

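Early against later had no called gene with edgeR or under 10 alternatives, from 271 to 1402 genes at an unadjusted p under 0.05 where all 12285 genes were tested, but 254 genes with DESeq2 and 282 without a filter on low counts (17169 genes tested). The slope on passage gave 31 called genes, against 464 with DESeq2, 98 without a filter, 61 with all 6 mSGc libraries and medium in the fit, 19 with limma voom, 4 on the untransformed passage number, 3 with at least 10 counts in every library, and 0 (without P2) to 617 (without P10) with 1 library left out. The cause was not tested. The 31 kept their sign in every alternative that gave them a value. Genes at least 2-fold higher from P2 to P4 numbered 513 with a pseudocount of 0.1 CPM and 174 with 5 CPM. With 5 CPM, 369 were lower over that step, 416 higher and 569 lower from P4 to P10, and 619 higher and 611 lower from P10 to P25. Without TMM factors the step from P4 to P10 had 972 higher and 820 lower, against 780 and 989. Of 20 list medians, 11 turned sign when 1 library was left out and 9 did not, and none turned under DESeq2 or without TMM factors. Those that turned are named with their values in the report. With 1 library left out, the log2 fold change of early against later ran from -0.0095 (without P2) to 1.76 for Krt5, from -0.65 (without P25) to 0.51 for Krt14, from -0.61 to 0.27 (without P10) for Trp53, from -0.62 (without P25) to 0.96 for Mki67, from -0.39 (without P25) to 1.24 for Top2a, from -0.82 (without P25) to 1.14 for Ccnb2 and from -0.44 (without P25) to 3.71 for Csf3, and Krt14 was at -0.049 with voom. No other gene described by its early against later difference turned sign, apart from Postn, given as a marker only. Aqp5, Krt13, Calml3, Sparc, Tgfbi, Egf and Klk1, given by their TPM, are not covered by this statement. No paired analysis was possible because each passage has 1 library and the numbers only name libraries within a side. Folds of genes with no count on one side are known only as bounds, and those with 1 to 3 counts only within wide counting intervals.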
